A study of Homo sapiens with 9 samples.

Results

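SR proteins and heterogeneous nuclear ribonucleoproteins (hnRNPs) are the 2 large families of RNA-binding proteins that choose between splice sites, and their mRNA levels are described here in U-2 OS cells after editing of SUGP1, a G-patch protein that acts with SF3B1 in branch point recognition. The 37 genes were taken by name from the 38179 entries of the count table: 14 SR and SR-like genes (SRSF1 to SRSF12, TRA2A and TRA2B) and 23 hnRNP genes, including the 3 polypyrimidine tract binding genes PTBP1, PTBP2 and PTBP3. None of them was listed more than once, and 36 of the 37 reached the minimum level (log2 CPM above -2 in 1 library or more, where CPM is a count scaled to the library total) and were tested in a table of 21071 genes. U-2 OS is a human osteosarcoma line. Pools of cells carrying transfected Cas9 mRNA received a single guide, crSUGP1, crXCR1 or NTC, and polyA RNA was sequenced from 3 libraries per guide, 1 from each of 3 independent experiments. The crXCR1 guide cuts XCR1, a chemokine receptor gene of dendritic cells, and was the control for a DNA break, while NTC is a non-targeting guide. The pools are mixtures of edited and unedited cells, not clones. The labels give 72 h from guide to fixation for the screen in plates, and no time was stated for the flasks that gave the RNA.

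SR proteins carry RNA recognition motifs and a domain rich in arginine and serine, and bind mainly exonic enhancers, while many hnRNPs bind silencers and favour exon skipping. Members of both families control their own amounts. High levels of a protein push splicing of its own pre-mRNA, or that of a relative, to a form with a premature stop codon that is removed by nonsense-mediated decay, either by including a poison exon or by skipping a coding exon. The question put to the counts was whether the mRNA totals of these regulators moved when SUGP1 was lost. Counts per gene sum all transcripts, so inclusion of a poison exon was not measured here.

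In GENCODE 44 on GRCh38, 29 of the 36 tested members have at least 1 annotated decay transcript (80.6%), against 45.1% of the 15467 tested protein-coding genes. An exon found only in decay transcripts is annotated for 14 of the 36 (38.9%), against 23.9% of the same genes. These shares describe the annotation and not the cells. Over all 37 members, 19 such exons of 13 genes hold the stop codon of a decay transcript, and they are 62 to 456 bases long.

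The exon that PTBP1 is known to repress in its own and in PTBP2 transcripts, with the matching exon of PTBP3, is shown first, because PTBP2 and PTBP3 had the highest log2 fold changes of the members. It is exon 11 of 15 in PTBP1 (ENST00000356948.11, chr19:807869-807902, plus strand), exon 10 of 14 in PTBP2 (ENST00000674951.1, chr1:96806419-96806452, plus strand) and exon 10 of 14 in PTBP3 (ENST00000374257.6, chr9:112231380-112231413, minus strand), all in GRCh38. Each copy is 34 bases long, which is not a multiple of a codon, so skipping shifts the frame. Capitals mark the 19 bases that are identical in all 3 genes.
PTBP1 exon 11: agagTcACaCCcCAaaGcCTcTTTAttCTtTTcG
PTBP2 exon 10: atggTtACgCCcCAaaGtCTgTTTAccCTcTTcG
PTBP3 exon 10: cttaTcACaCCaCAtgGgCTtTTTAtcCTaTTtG
PTBP1 and PTBP2 share 25 of the 34 bases, PTBP1 and PTBP3 share 22, and PTBP2 and PTBP3 share 21. Skipping of this exon is annotated in 2 decay transcripts of PTBP1, in 3 of PTBP2 and in 0 of PTBP3.

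Poison exons are shown for SRSF4 and HNRNPLL, which fell slightly, for HNRNPL, the paralog of HNRNPLL, and for TRA2B, whose total barely differed between guides. The SRSF4 exon is 175 bases (chr1:29165890-29166064, minus strand), the HNRNPLL exon 83 bases (chr2:38577920-38578002, minus strand), the HNRNPL exon 70 bases (chr19:38841613-38841682, minus strand) and the TRA2B exon 276 bases (chr3:185931577-185931852, minus strand), all in GRCh38. SRSF4 has 5 annotated exons found only in decay transcripts, and the exon shown is the one that holds the annotated stop codon. HNRNPLL, HNRNPL and TRA2B have 1 such exon each. Capitals mark the stop codon annotated for the decay transcript, which is TGA in all 4.
SRSF4 poison exon: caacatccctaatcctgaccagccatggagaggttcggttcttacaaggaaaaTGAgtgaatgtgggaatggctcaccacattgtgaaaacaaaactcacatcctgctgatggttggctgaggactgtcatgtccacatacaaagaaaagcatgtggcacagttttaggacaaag
HNRNPLL poison exon: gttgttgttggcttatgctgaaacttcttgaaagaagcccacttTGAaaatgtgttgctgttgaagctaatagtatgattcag
HNRNPL poison exon: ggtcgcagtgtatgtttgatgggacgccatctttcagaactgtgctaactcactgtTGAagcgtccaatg
TRA2B poison exon: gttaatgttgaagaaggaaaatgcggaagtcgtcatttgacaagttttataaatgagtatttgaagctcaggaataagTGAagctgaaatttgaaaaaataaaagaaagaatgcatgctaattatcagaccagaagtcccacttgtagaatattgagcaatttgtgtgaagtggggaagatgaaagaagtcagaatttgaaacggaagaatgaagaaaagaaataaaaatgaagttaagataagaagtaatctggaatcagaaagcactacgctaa

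The libraries held 68713077 to 97474913 counts with crSUGP1, 71470798 to 107953507 with crXCR1 and 71920421 to 96464638 with NTC. SUGP1 itself was at 7.88, 7.69 and 6.52 CPM in the crSUGP1 libraries of experiments 1, 2 and 3, against 31.6, 29.0 and 28.2 CPM with crXCR1 and 30.2, 30.8 and 28.3 CPM with NTC. Every crSUGP1 library lay below every control library, and the log2 fold change against the mean of both controls was -2.01 ± 0.08 (SE). The crSUGP1 target, tacttgtacccttggctattGGG with the PAM in capitals, lies in exon 8 of SUGP1 (ENST00000247001.10) at chr19:19297309-19297328 on the plus strand of GRCh38, and Cas9 cuts after position 19297325. Of 8 genes marking the mesenchymal and osteoblast lineage, 7 were above 1 CPM, while TWIST1 was at or near 0. The summed level of 15 markers of other cell types was 37.56 to 44.04 CPM with crSUGP1, against 36.93 to 43.34 CPM in the 6 control libraries, with CD3E and HBB at 0. In bulk RNA, fewer cells expressing a gene and less RNA per cell cannot be told apart.

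The families are abundant in U-2 OS cells. The 14 SR and SR-like genes together reached 2826 ± 62.3 CPM with crSUGP1, 2825 ± 116 CPM with crXCR1 and 2887 ± 78.7 CPM with NTC (SD, n = 3 each). The 23 hnRNP genes together reached 10556 ± 357 CPM with crSUGP1, 10839 ± 397 CPM with crXCR1 and 11063 ± 323 CPM with NTC. For both families the groups overlapped, and the means lay within 1 SD of a control for the SR genes and less than 2 SD below NTC for the hnRNP genes.

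Per kilobase of annotated exon, the highest levels in NTC cells were those of HNRNPA1 at 203 CPM per kb and HNRNPAB at 184 CPM per kb, hnRNPs of the A/B family that bind exonic and intronic silencers. HNRNPK (125 CPM per kb), a protein with KH domains, HNRNPA2B1 (123 CPM per kb) and SRSF2 (121 CPM per kb), an activator of exons, followed. The lowest levels among tested members were those of PTBP2 at 1.13 CPM per kb, HNRNPLL at 8.02, SRSF8 at 8.58 and PTBP3 at 8.69 CPM per kb. PTBP2 is the form of PTB best known from neurons, so its low level stood beside a PTBP1 level of 79.2 CPM per kb. These levels divide by the exons of all annotated transcripts, so the order of genes and the gaps between them depend on the annotation. Those exons span 20122 bases in PTBP2 and 12613 in HNRNPA2B1, against 3321 and 3628 in the canonical transcript. For PTBP1 the lengths were 7521 and 3206 bases, and for HNRNPAB 2118 and 1770. SRSF12, the member left out of the tests, had 1, 5 and 8 counts with crSUGP1, 5, 5 and 2 counts with crXCR1, and 1, 0 and 5 counts with NTC, in experiments 1 to 3. These counts overlapped between the groups, no difference was detectable at this depth, and the count of 0 allows up to 3 counts.

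No member changed enough to be called. A call needed an adjusted p no higher than 0.05 (edgeR quasi-likelihood test, Benjamini-Hochberg over all 21071 genes) and a log2 fold change of 0.5 or more in either direction. The count of called members was 0 of 36 for crSUGP1 against NTC, where 0.783% of all genes were called, 0 of 36 against crXCR1 (0.774% of all genes), 0 of 36 against the mean of both controls (1.19%) and 0 of 36 for crXCR1 against NTC (0% of all genes). At the same adjusted p and any fold, the counts were also 0 of 36, against 1.26%, 1.43%, 2.9% and 0% of all genes in that order of comparisons. With so low a background, 0 of 36 members is near what all genes gave. At an unadjusted p under 0.05, 4, 5, 5 and 0 members were counted, which is 11.1%, 13.9%, 13.9% and 0% of them, below the 13.2%, 16.1%, 18.6% and 1.34% of all genes. DESeq2 called 0 members, and at any fold it passed 1, 1, 3 and 0, which is 2.78%, 2.78%, 8.33% and 0%, near or below the 3.93%, 4.94%, 7.23% and 0.0617% of all genes. The 3 comparisons with crSUGP1 share its libraries and are not independent of each other.

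The intervals show how small the differences were. All 36 members had a 95% interval of the log2 fold change inside ±0.5 in each of the 4 comparisons. Against the mean of both controls, the log2 fold changes ran from -0.17 (HNRNPM) to 0.23 (PTBP2), with a median of -0.025, beside a median of -0.0034 over all genes tested. An absolute log2 fold change under 0.1 was seen for 25 of the 36 members in that comparison, against 44.9% of all genes, and for 36 of 36 in crXCR1 against NTC, against 71.8% of all genes. The share of all genes includes many at low counts, whose estimates scatter more.

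**Figure D1:**
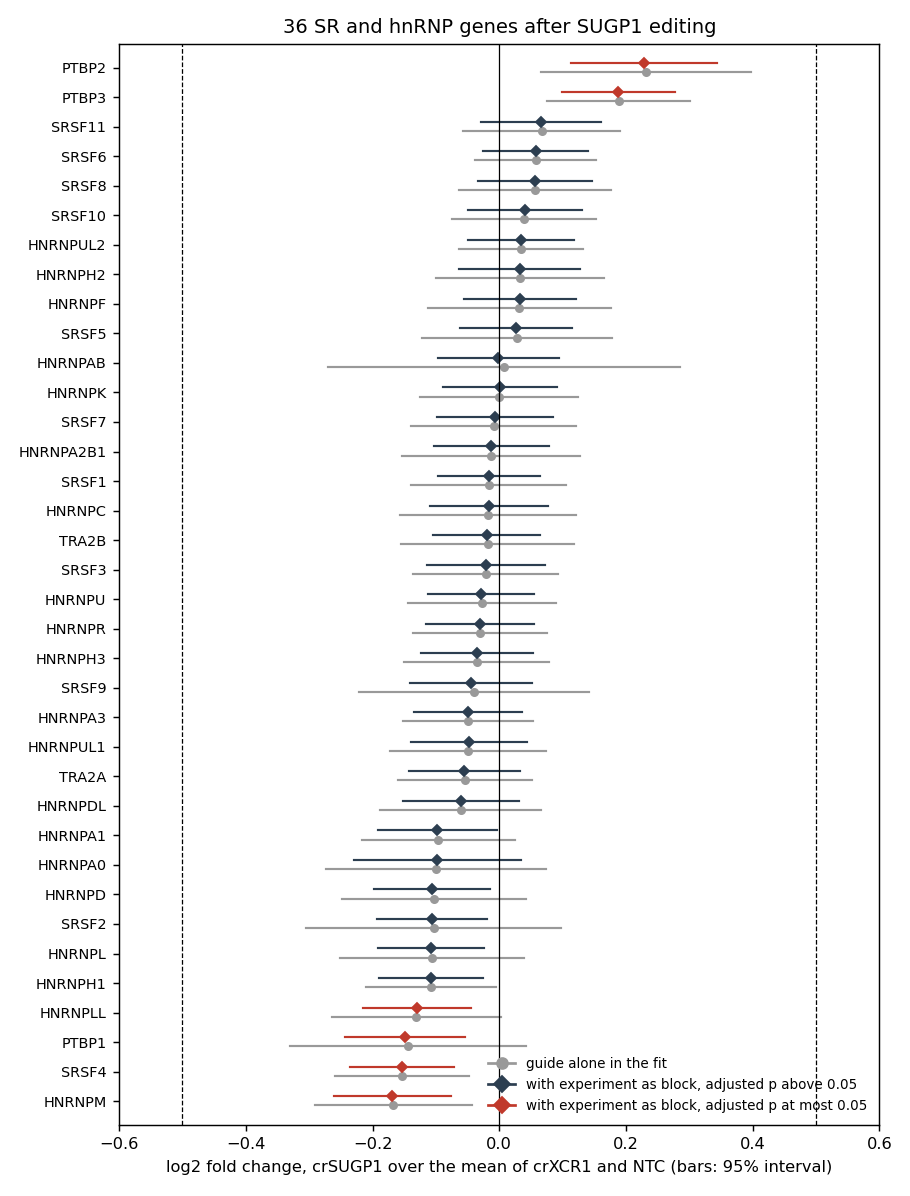
Log2 fold change of each of the 36 tested members in crSUGP1 cells over the mean of crXCR1 and NTC cells, with 95% intervals, from the fit with guide alone (circles) and from the fit that also holds the experiment (diamonds, red where the adjusted p is at most 0.05). All intervals lie inside the dashed lines at ±0.5; PTBP2 and PTBP3 lie highest, and HNRNPM, SRSF4, PTBP1 and HNRNPLL lowest.

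The study had 3 experiments with every guide, and same-numbered libraries, whose deviations moved together, were taken as 1 experiment, so the same comparisons were also fitted with the experiment as a block. Then 5 members passed at any fold against NTC, 5 against crXCR1 and 6 against the mean of both controls, none with an absolute log2 fold change of 0.5. PTBP2 and PTBP3 were the 2 that rose in each comparison. The background of rising genes was 6.72% against NTC, 9.99% against crXCR1 and 12% against the mean of both controls, and 2 of 36 members is below each of these shares. HNRNPM, SRSF4 and PTBP1 fell against NTC (background 8.96%), HNRNPM, SRSF4 and HNRNPLL fell against crXCR1 (11.7%), and HNRNPM, SRSF4, PTBP1 and HNRNPLL fell against the mean of both controls (13.3%). For crXCR1 against NTC, 0 members passed with the block (edgeR; 0.0142% of all genes), with 0 at an unadjusted p under 0.05 and 0 by DESeq2. In this edgeR fit the counts of falling members are likewise no larger a share than that of all genes. The counts of members passing with the block rest on few libraries: without the crSUGP1 library of experiment 1, the count was 0 against NTC, 2 against crXCR1 and 3 against the mean of both controls. Without 1 NTC library it was 1, 3 and 0 against NTC for experiments 1, 2 and 3, and without 1 crXCR1 library it was 2, 1 and 1 against crXCR1.

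PTBP2 and PTBP3 are the paralogs of PTBP1, which represses exons by binding pyrimidine tracts and in other cells keeps PTBP2 low by exon skipping. PTBP2 mRNA was at 25.8, 23.7 and 30.2 CPM in the crSUGP1 libraries of experiments 1, 2 and 3, against 22.5, 21.9 and 23.1 CPM with crXCR1 and 22.6, 22.9 and 22.7 CPM with NTC. All 3 crSUGP1 libraries lay above all 6 controls, the one of experiment 3 by most. The log2 fold change against the mean of both controls was 0.23 ± 0.05 (SE) with the block (adjusted p = 0.0068, edgeR) and 0.23 ± 0.07 without it (adjusted p = 0.136), which in the blocked fit was 17.1% above the controls. Leaving out experiment 3 gave 0.14 with the block and an adjusted p of 0.064, and leaving out experiment 1 gave 0.25 and an adjusted p of 0.054. Of 3 neuronal markers, RBFOX3, SYP and SNAP25, the summed level was 29.0 to 36.5 CPM with crSUGP1, 29.6 to 34.4 CPM with crXCR1 and 28.4 to 35.7 CPM with NTC, so the sums overlapped. The sum joins markers that moved in different directions. Within each experiment SYP was lowest with crSUGP1 (7.24, 6.43 and 4.89 CPM) and SNAP25 highest (6.95, 7.74 and 8.74 CPM). RBFOX3 was highest with crSUGP1 in experiments 1 and 2 and between the controls in experiment 3. The part of these markers in the PTBP2 result was not tested.

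PTBP3, first described as a regulator of differentiation, was at 78.9, 83.5 and 81.8 CPM with crSUGP1, against 72.1, 70.7 and 71.3 CPM with crXCR1 and 69.7, 76.8 and 68.2 CPM with NTC. The groups did not overlap. Its log2 fold change was 0.19 ± 0.04 with the block (adjusted p = 0.0046) and 0.19 ± 0.05 without it (adjusted p = 0.085). It was the member that passed the adjusted p against the mean of both controls under all 18 alternatives of the blocked fit, with log2 fold changes from 0.16 to 0.21.

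PTBP1 was at 578, 566 and 461 CPM with crSUGP1, against 633, 581 and 547 CPM with crXCR1 and 624, 601 and 561 CPM with NTC. The crSUGP1 libraries of experiments 1 and 2 lay inside the range of the controls and that of experiment 3 below it, but within each experiment the crSUGP1 library was the lowest. The log2 fold change was -0.15 ± 0.04 with the block (adjusted p = 0.023) and -0.14 ± 0.08 without it (adjusted p = 0.396). Without the crSUGP1 library of experiment 3 it was -0.09 with an adjusted p of 0.088, and without that of experiment 1 it was -0.16 with an adjusted p of 0.081. PTBP1 also did not pass without the NTC library (adjusted p = 0.067) or the crXCR1 library (adjusted p = 0.061) of experiment 3. Per 100 PTBP1 counts there were 4.46, 4.18 and 6.54 PTBP2 counts with crSUGP1, against 3.55, 3.77 and 4.22 with crXCR1 and 3.62, 3.80 and 4.05 with NTC, values that overlap between crSUGP1 and crXCR1. The PTBP3 counts per 100 PTBP1 counts were 13.7, 14.7 and 17.7 with crSUGP1, against 11.4, 12.2 and 13.0 with crXCR1 and 11.2, 12.8 and 12.2 with NTC, and these did not overlap. The ratios are descriptions, since they were chosen after the values had been seen.

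**Figure D2:**
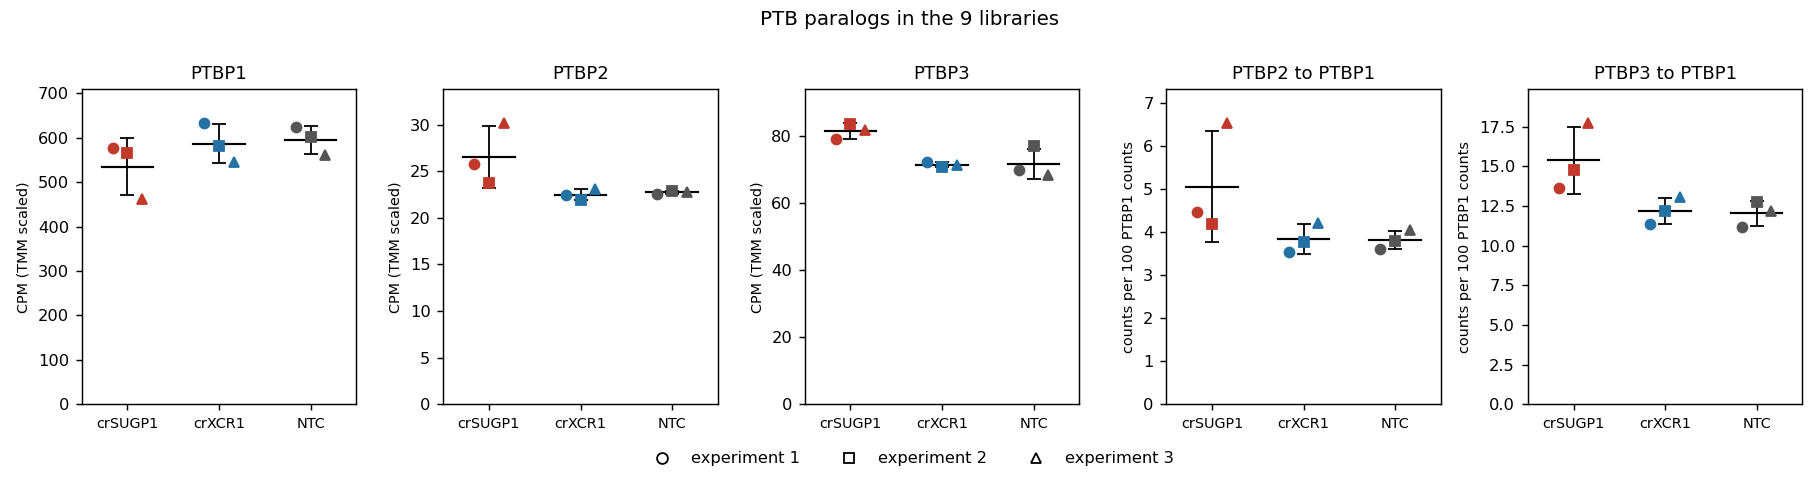
CPM of PTBP1, PTBP2 and PTBP3 and the counts of PTBP2 and PTBP3 per 100 PTBP1 counts in each library (symbols by experiment), with the mean and SD of the 3 libraries of each guide. PTBP2 and PTBP3 are higher in every crSUGP1 library than in every control, and in experiment 3 the crSUGP1 cells have both the lowest PTBP1 (461 CPM) and the highest PTBP2 (30.2 CPM).

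HNRNPM, which binds GU-rich intronic sequence, was at 472, 462 and 413 CPM with crSUGP1, against 518, 493 and 493 CPM with crXCR1 and 503, 517 and 502 CPM with NTC. All crSUGP1 libraries lay below all controls. Its log2 fold change was -0.17 ± 0.04 with the block (adjusted p = 0.010) and -0.17 ± 0.05 without it (adjusted p = 0.148). HNRNPM did not pass with the block when experiment 1 (adjusted p = 0.061) or experiment 3 (adjusted p = 0.055) was left out. HNRNPM and PTBP1 are the members on the part of chromosome 19p between the SUGP1 cut and the telomere. The 523 genes of that part at 1 CPM or more had log2 fold changes with a median of -0.19, 94.3% being below 0, while the 691 genes of 19q had a median of 0.01 and the 15548 genes of other chromosomes a median of 0.01. In crXCR1 against NTC the median of the 523 genes was 0.01. The values of HNRNPM and PTBP1 thus stood close to the median of their arm, whose part in the result was not tested. HNRNPL and HNRNPUL1, members on 19q, had log2 fold changes of -0.11 and -0.05 without passing.

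**Figure D3:**
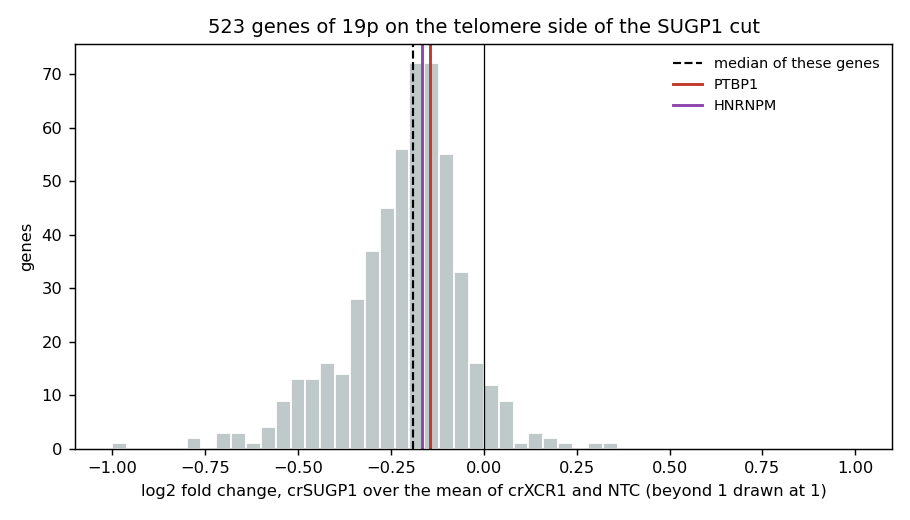
Distribution of log2 fold changes, crSUGP1 over the mean of crXCR1 and NTC, of the 523 genes of 19p between the SUGP1 cut and the telomere, with their median of -0.19 (dashed). PTBP1 at -0.14 and HNRNPM at -0.17 lie near the middle of the distribution.

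SRSF4, an SR protein that binds exonic enhancers, was at 89.7, 82.9 and 86.4 CPM with crSUGP1, against 97.2, 94.7 and 92.0 CPM with crXCR1 and 101, 95.3 and 96.0 CPM with NTC. The groups did not overlap. Its log2 fold change was -0.15 ± 0.04 with the block (adjusted p = 0.0095) and -0.15 ± 0.05 without it (adjusted p = 0.124). In 4 of 18 alternatives of the blocked fit SRSF4 did not pass, with an adjusted p of up to 0.11. Without the crSUGP1 library of experiment 1 or of experiment 2 the adjusted p was 0.059 and 0.062, and SRSF4 also did not pass when the whole of experiment 1 or of experiment 2 was left out. HNRNPLL, known for splicing of CD45 in lymphocytes, was at 42.4, 44.1 and 45.9 CPM with crSUGP1, against 47.8, 47.4 and 52.1 CPM with crXCR1 and 45.1, 46.5 and 51.2 CPM with NTC. Of the crSUGP1 libraries, 2 lay below all controls and that of experiment 3 inside their range. The log2 fold change was -0.13 ± 0.04 with the block (adjusted p = 0.027) and -0.13 ± 0.06 without it (adjusted p = 0.278). HNRNPLL did not pass in 9 of 18 alternatives of the blocked fit. Among them were those without the library of experiment 1 of any guide, without the crXCR1 library of experiment 2 and without the NTC or crXCR1 library of experiment 3.

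**Figure D4:**
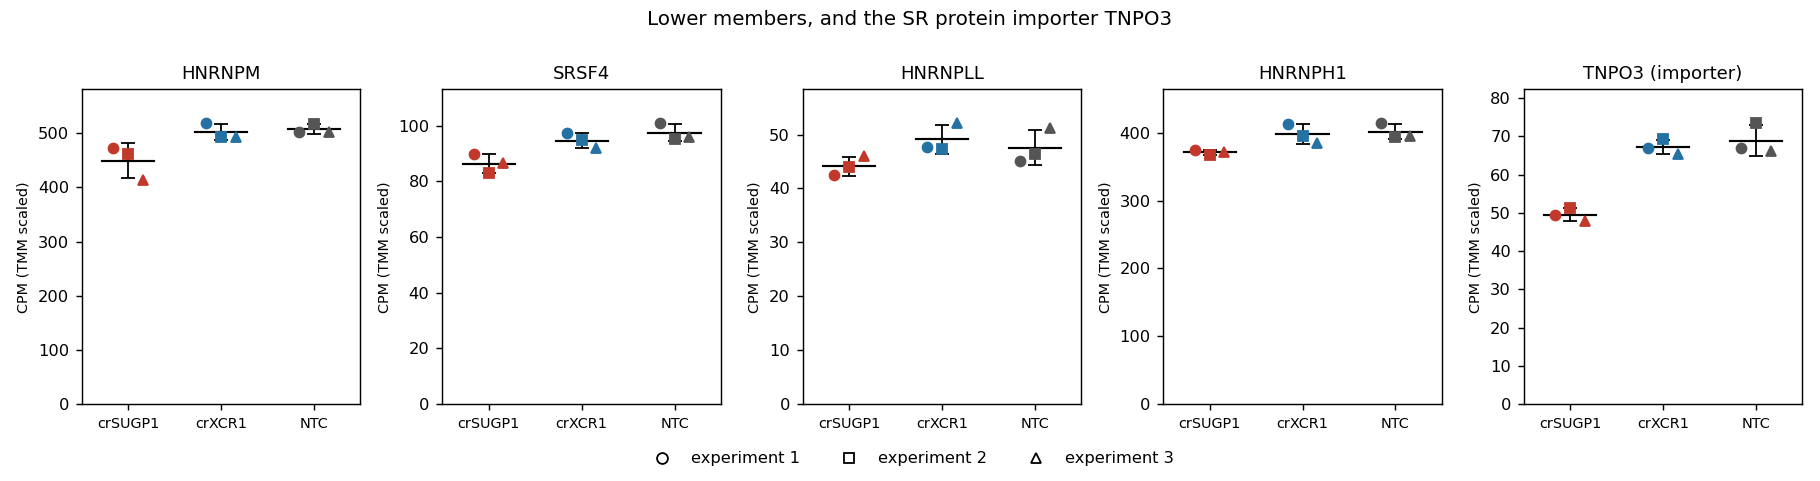
CPM of HNRNPM, SRSF4, HNRNPLL, HNRNPH1 and of TNPO3, the importer of SR proteins, in each library (symbols by experiment), with the mean and SD of the 3 libraries of each guide. HNRNPM, SRSF4 and HNRNPH1 are lower in every crSUGP1 library than in every control by small amounts, while TNPO3 shows a wider gap, with crSUGP1 at 47.8 to 51.3 CPM.

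Apart from SRSF4, no SR or SR-like gene tested passed in any comparison of the main fits, with or without the block. SRSF2 had a log2 fold change of -0.10 against the mean of both controls, and of -0.11 ± 0.04 with the block (adjusted p = 0.067, edgeR). With the block it passed there under upper quartile scaling, library totals without TMM, a stricter minimum level and without the NTC library of experiment 2. SRSF9 had a log2 fold change of -0.04. SRSF11, an SR-related protein first found as a factor that binds the U2AF complex, was at 154, 140 and 153 CPM with crSUGP1, against 135, 140 and 149 CPM with crXCR1 and 150, 140 and 141 CPM with NTC, and the groups overlapped (log2 fold change 0.07 ± 0.06, adjusted p = 0.569). SRSF6 was at 210, 211 and 223 CPM with crSUGP1, against 207, 206 and 201 CPM with crXCR1 and 208, 207 and 210.04 CPM with NTC. The 3 crSUGP1 libraries of SRSF6 lay above all controls, 1 of them by a margin well under 1 CPM, with a log2 fold change of 0.06 ± 0.04 (adjusted p = 0.524). SRSF1, the founding SR protein, had a log2 fold change of -0.02, SRSF3, the shortest SR protein, of -0.02, and SRSF7, the SR protein with a zinc knuckle, of -0.01, against the mean of both controls. The Tra2 proteins, which bind GAA-rich enhancers, differed as little, with -0.02 for TRA2B and -0.05 for TRA2A, and SRSF5, SRSF8 and SRSF10 were at 0.03, 0.06 and 0.04. SRSF7 had the lowest log2 fold change in crXCR1 against NTC (-0.08) and SRSF8 the highest (0.06).

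Among the other hnRNPs, HNRNPH1, which binds G-runs, was at 374, 367 and 372 CPM with crSUGP1, against 413, 396 and 385 CPM with crXCR1 and 414, 395 and 396 CPM with NTC. The groups did not overlap, but the gene did not pass, with a log2 fold change of -0.11 ± 0.04 and an adjusted p of 0.053 with the block. It passed against the mean of both controls by DESeq2 with the block (adjusted p = 0.028), which passed 8 members there, with HNRNPH1 and HNRNPL (adjusted p = 0.032) added to the 6. Those 8 are 22.2% of the members, near the 21.2% of all genes that passed in that fit. Of the 36 members 6 fell there, against 2182 of 21071 genes, a larger share for the members. HNRNPM and PTBP1, among those 6, lie on 19p between the cut and the telomere. In that part 94.3% of genes were below 0, and 60.2% fell and passed in edgeR with the block. What that part adds to the share of members was not tested. In edgeR with the block HNRNPH1 also passed with a stricter minimum level, with 2 other scalings, and without the NTC library of experiment 2, the crSUGP1 library of experiment 3 or the whole of experiment 3. Its relatives HNRNPF and HNRNPH3 had values of 0.03 and -0.04, and HNRNPH2 of 0.03. HNRNPL, which binds CA repeats, had -0.11 and HNRNPD, which binds AU-rich elements, -0.10. HNRNPA1 had -0.10, while HNRNPA2B1 was at -0.01, HNRNPC, which binds uridine tracts, at -0.02, HNRNPK at -0.00 and HNRNPU, a scaffold attachment protein, at -0.03. The log2 fold changes of HNRNPA0, HNRNPA3, HNRNPDL, HNRNPR and HNRNPUL2 were -0.10, -0.05, -0.06, -0.03 and 0.03, and none of them passed. HNRNPA1 has 74 annotated pseudogenes of its name in GENCODE 44 and HNRNPA3 has 16, so their counts may be split with near-identical copies. The strand of counting was not stated, and SRSF2, SRSF9 and HNRNPA3 share 27.7%, 43.6% and 53.6% of their exonic bases with genes on the opposite strand. HNRNPUL2, SRSF1, HNRNPH2, SRSF6 and HNRNPL share 44.3%, 32.7%, 15.8%, 13.4% and 8.6% with another gene on their own strand. Knowing the strand would not separate those.

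Within experiments, each crSUGP1 library was set against the crXCR1 and the NTC library of the same number, giving 6 differences per member that share libraries. Of the 36 members, 8 were lower in 6 of 6 (SRSF2, SRSF4, HNRNPD, HNRNPH1, HNRNPL, HNRNPLL, HNRNPM and PTBP1) and 3 were higher in 6 of 6 (SRSF6, PTBP2 and PTBP3). Of all genes tested, 17.6% were lower and 17% higher in 6 of 6. The other 25 members moved in both directions. For PTBP2 the 6 log2 differences were 0.05 to 0.41, for PTBP3 0.12 to 0.26 and for HNRNPM -0.28 to -0.09.

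The experiments moved some members more than the guides did. In the fit with guide and experiment, 9 of 36 members passed the F test for experiment (HNRNPAB, SRSF2, PTBP1, SRSF9, SRSF5, HNRNPL, HNRNPF, HNRNPLL and TRA2B), against 40.8% of all genes. The F test for guide was passed by 4 of 36 (PTBP2, PTBP3, SRSF4 and HNRNPM), against 18.8% of all genes. Both shares of members are below the background. Of the 9, 7 were lowest in experiment 3, and SRSF5 and HNRNPLL were highest there. The count for experiment was 5 without the NTC library of experiment 2, the crSUGP1 library of experiment 1 or the crXCR1 library of experiment 3, and 4 without the NTC library of experiment 3. The count for guide was 0 without the crSUGP1 library of experiment 1, and 2 without the NTC library of experiment 1 or 3 or the crXCR1 library of experiment 1.

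HNRNPAB, a CArG-box and RNA-binding hnRNP, had the widest range between experiments. It was at 423, 426 and 307 CPM with crSUGP1, against 420, 393 and 322 CPM with crXCR1 and 417, 404 and 346 CPM with NTC, in experiments 1, 2 and 3. Experiment 3 was the lowest with each guide, and the range was 0.37 on the log2 scale between experiments (adjusted p = 7.2e-05) and 0.04 between guides. SRSF2 was at 367, 345 and 290 CPM with crSUGP1, against 391, 357 and 326 CPM with crXCR1 and 390, 354 and 335 CPM with NTC, again lowest in experiment 3 (range 0.27, adjusted p = 0.00083). SRSF9, a small SR protein, was at 253, 248 and 203 CPM with crSUGP1, against 259, 238 and 221 CPM with crXCR1 and 254, 241 and 235 CPM with NTC (range 0.22, adjusted p = 0.0099). For all 3 genes the crSUGP1 library was the lowest of experiment 3. Over the 36 members, the median SD within groups was 0.07 on the log2 scale, against 0.12 for the 16793 genes at 1 CPM or more.

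**Figure D5:**
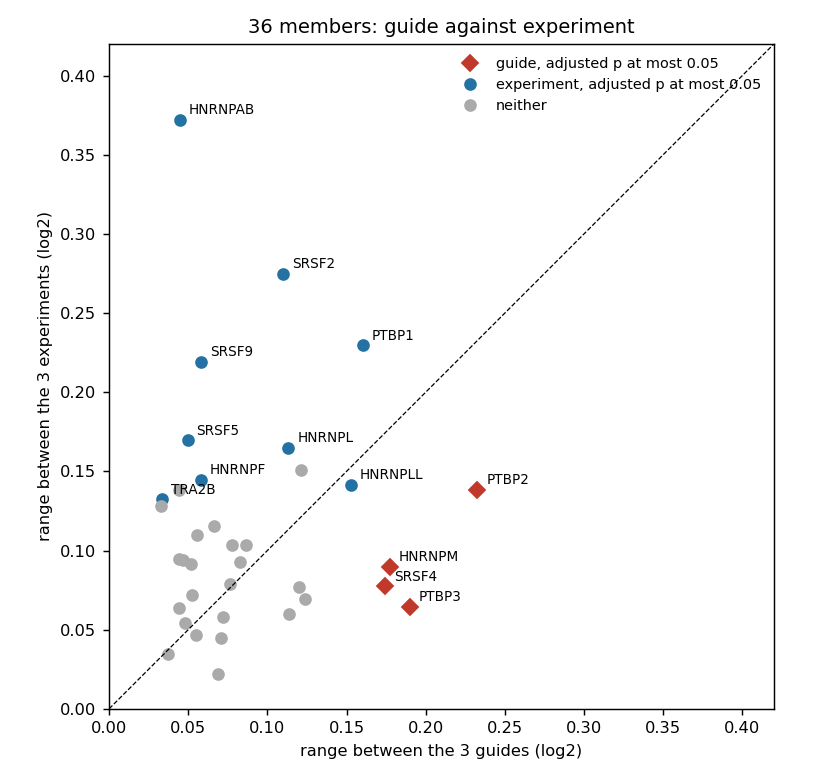
Range of the mean log2 CPM between the 3 experiments against its range between the 3 guides for the 36 members, with the dashed line where both are equal. HNRNPAB has the widest range between experiments (0.37) and PTBP2 the widest between guides (0.23); PTBP2, PTBP3, SRSF4 and HNRNPM lie below the line.

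The partners of the members are read against the share of all genes that fell at any fold without the block, which was 0.755% against NTC, 0.968% against crXCR1 and 1.74% against the mean of both controls, and against the blocked shares given above. Of 11 kinases and importers of SR proteins, 1 fell and 0 rose in each comparison with crSUGP1 without the block, and the one that fell was TNPO3, transportin-SR, which carries phosphorylated SR proteins into the nucleus. TNPO3 was at 49.6, 51.3 and 47.8 CPM with crSUGP1, against 67.0, 69.3 and 65.5 CPM with crXCR1 and 67.0, 73.5 and 66.1 CPM with NTC. The groups were well apart. The log2 fold change was -0.47 ± 0.06 against NTC (adjusted p = 0.0046), -0.44 ± 0.06 against crXCR1 (adjusted p = 0.0080) and -0.46 ± 0.05 against the mean of both controls (adjusted p = 0.0021), short of the 0.5 set for a call. Over the alternatives to the fit without the block, TNPO3 did not pass in 2 of 20 against NTC, 3 of 20 against crXCR1 and 2 of 19 against the mean of both controls. Among these, the adjusted p against crXCR1 was 0.057 when the crXCR1 library of experiment 2 was left out. When experiment 1 was left out the adjusted p was 0.34 against NTC, 0.47 against crXCR1 and 0.23 against the mean of both controls. With the block, TNPO3 passed under every alternative run. With the block, SRPK2, which phosphorylates SR proteins, and TNPO1, which imports hnRNP A1, rose in all 3 comparisons with crSUGP1 (log2 fold changes of 0.19 and 0.21 against the mean of both controls, adjusted p = 0.0060 and 0.0032). The SRPK2 groups did not overlap, at 92.6 to 101 CPM with crSUGP1 against 81.1 to 90.2 CPM in the controls, while those of TNPO1 did. CLK2, a nuclear SR protein kinase, fell by 0.15 on the log2 scale against the mean of both controls (adjusted p = 0.018) but did not pass against crXCR1 (adjusted p = 0.056).

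Of 49 other splicing regulators, 48 were tested. Without the block, 1, 1 and 3 fell against NTC, crXCR1 and the mean of both controls, and 0 rose. RBFOX2, which binds GCAUG, was at 135, 127 and 142 CPM with crSUGP1, against 167, 169 and 177 CPM with crXCR1 and 158, 170 and 174 CPM with NTC, with no overlap (log2 fold change against the mean of both controls -0.33 ± 0.05, adjusted p = 0.016). The adjusted p was 0.075 without the crSUGP1 library of experiment 1 and 0.11 without that of experiment 2. Against NTC alone (adjusted p = 0.048) RBFOX2 did not pass in 14 of 20 alternatives, and against crXCR1 alone (adjusted p = 0.033) in 10 of 20. These alternatives are to the fit without the block. With the block, RBFOX2 passed under all 18 alternatives in each comparison with crSUGP1 (edgeR or DESeq2, adjusted p of up to 0.011). NONO, a paraspeckle protein, was at 601, 600.3 and 620.2 CPM with crSUGP1, against 700.5, 691 and 712 CPM with crXCR1 and 694, 677 and 724 CPM with NTC, and fell by 0.20 against the mean of both controls (adjusted p = 0.047), and without 1 library the adjusted p was 0.051 to 0.22 for each of the 9. The groups did not overlap. SAFB2, a scaffold attachment factor on the same part of 19p as PTBP1, was at 67.0, 63.2 and 48.1 CPM with crSUGP1, against 90.8, 84.3 and 76.4 CPM with crXCR1 and 89.1, 84.9 and 80.8 CPM with NTC. It fell by 0.51 against the mean of both controls (adjusted p = 0.036) and was the 1 gene of the list past the fold for a call. The adjusted p of SAFB2 was above 0.05 without any 1 of the NTC libraries, of the crSUGP1 libraries of experiments 1 and 2 or of the crXCR1 libraries of experiments 1 and 2. With the block, SAFB2 passed under all 18 alternatives in each comparison with crSUGP1. NONO with the block did not pass in 3, 1 and 0 of 18 against NTC, crXCR1 and the mean of both controls. The median log2 fold change against the mean of both controls was 0.070 over the kinases and importers, -0.0063 over these regulators and 0.045 over the decay factors described next, beside -0.0034 over all genes tested. With the block, 1 of these regulators rose and 7 fell against NTC, 5 rose and 6 fell against crXCR1, and 6 rose and 8 fell against the mean of both controls. Of all genes, 6.72% rose and 8.96% fell against NTC, 9.99% and 11.7% against crXCR1, and 12% and 13.3% against the mean of both controls.

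Of 15 factors of nonsense-mediated decay, the pathway that removes poison-exon transcripts, 1 fell and 0 rose in each comparison with crSUGP1 without the block. It was UPF3B, which links the exon junction complex to decay. UPF3B was at 16.2, 14.2 and 15.7 CPM with crSUGP1, against 20.2, 21.7 and 22.5 CPM with crXCR1 and 22.7, 23.8 and 22.5 CPM with NTC. The groups did not overlap, and UPF3B was called against NTC (log2 fold change -0.58 ± 0.07, adjusted p = 0.0046) and against the mean of both controls (-0.53 ± 0.06, adjusted p = 0.0032). Both calls were lost when experiment 1 (adjusted p = 0.25 and 0.16) or experiment 2 (adjusted p = 0.45 and 0.30) was left out. Against crXCR1 the log2 fold change was -0.48 ± 0.07 (adjusted p = 0.015). In 6 of 20 alternatives UPF3B did not pass against crXCR1, with an adjusted p of up to 0.56. Among these, the adjusted p was 0.085 without the crSUGP1 library of experiment 2, 0.086 without the crXCR1 library of experiment 2 and 0.060 without the crXCR1 library of experiment 3. In the blocked fit, UPF3B passed at any fold under all 18 alternatives in each comparison with crSUGP1 (edgeR or DESeq2, adjusted p of up to 0.0021). With the block, 0 rose and 3 fell against NTC, 1 rose and 2 fell against crXCR1, and 2 rose and 3 fell against the mean of both controls, of 15 factors and beside the same shares of all genes.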

How the data were processed

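The deposited values are raw counts: in SeqMonk the authors assigned read pairs to exons and summed them by gene, after polyA selection, trimming and alignment to GRCh38, and did not normalize them. The submitters' processing notes list STAR 2.7.9a, cutadapt 2.4 and Trim Galore 0.6.7, and also R 4.1.0, DESeq2 1.32.0 and FastQC 0.11.5. The strand of counting is not given in the sources used here, so genes that overlap on opposite strands may share counts.

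Counts were scaled by TMM and fitted with edgeR 4.0.16 in R 4.3.3 over all 9 libraries and the 21071 genes that exceeded a log2 CPM of -2 in 1 library or more. The guide was the only term (6 residual degrees of freedom), since the study used default settings and its model formula is not given in the sources used here. A second fit added the experiment as a block (4 residual degrees of freedom), because the study made the libraries in 3 independent experiments that each held every guide. That the number in a label marks the experiment was inferred. In a check of this pairing, deviations of same-numbered libraries from their group means correlated at 0.482 to 0.893 (9 pairs, 16793 genes), against -0.842 to 0.641 for 18 other pairs, and the best match of a library had its own number in 8 of 9. Replicates differed by more than sampling noise. Entries of repeated names with identical counts (2) or counts of 0 (31) were dropped. The thresholds of a call were 0.05 for the adjusted p and 0.5 for the size of the log2 fold change. Alternatives were DESeq2 1.42.0, other scalings and filters, the block, fits to only the groups compared, and fits leaving out single libraries or experiments. The variants of the blocked fit were chosen after the data had been seen.

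The libraries held 68713077 to 107953507 counts, and a gene with few counts has a wide error. Standard errors and intervals were derived from edgeR's log2 fold change and F statistic, with a quantile of the t distribution. In the fit with guide alone they rest on the spread between libraries of the same guide. In the blocked fit they rest on the spread left after guide and experiment. The fits were tested on simulated data. Exons came from GENCODE 44 and sequences from GRCh38 with pysam 0.24.0. Levels per kb divide CPM by the union of annotated exons.

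The 37 members, the 3 lists of partner genes and the markers were chosen with earlier results of these data known. Values in every library are given for the 4 highest and 4 lowest log2 fold changes against the mean of both controls, members on 19p beyond the cut, members below the minimum, the 4 widest ranges between experiments, and genes of the lists that passed. HNRNPH1 and the PTB ratios were chosen after their values had been seen. Splicing was not analysed here.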

Additional observations from a re-analysis of the deposited data

How the results depend on the processing

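The log2 fold changes of the 8 members with the highest and lowest values kept their sign under all alternatives run for them in the 3 comparisons with crSUGP1, as did those of TNPO3, UPF3B, RBFOX2, NONO and SAFB2. The members called remained at 0 in every comparison and alternative. The members passing at any fold, 0 without the block, were 1 against NTC, 1 against crXCR1 and 3 against the mean of both controls by DESeq2. With the replicate block they were 5, 5 and 6, and the pairing of libraries by experiment left the members called at 0. Against the mean of both controls, 1 passed when experiment 3 was left out and 0 to 1 without 1 replicate. With the block, leaving out experiments 1, 2 and 3 gave 0, 3 and 1 against NTC, 0, 2 and 2 against crXCR1, and 1 against the mean of both controls for experiment 1. Upper quartile scaling gave 9 against crXCR1 and 10 against the mean of both controls. Library totals without TMM also gave 10 there, with HNRNPD, HNRNPH1, HNRNPL and SRSF2 added by both scalings, all lower. The share of all genes passing under these scalings is not given here, so these counts are not a result about the members. Against the mean of both controls without the block, the median of all genes was -0.021 and -0.015 in that order, against -0.0034 in the main fit. Without 1 replicate the blocked counts ranged from 0 to 6 against NTC, 1 to 5 against crXCR1 and 3 to 8 against the mean of both controls. Without 1 replicate, the members passing for experiment were 4 to 13 and those passing for guide 0 to 4. The median log2 fold change of members ranged from -0.036 to 0.031 against crXCR1 and from -0.047 to -0.0069 against the mean of both controls. The cause of these shifts was not tested. No scaling moved the median of all genes tested by 0.1 on the log2 scale. The 3 libraries per group and the few degrees of freedom limit what can be called.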
